A study of Mus musculus with 36 samples.

Results

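Transcripts of 9 genes known from the choroid plexus (Ttr, Kl, Folr1, Enpp2, Sostdc1, Clic6, Otx2, Aqp1 and Prlr) were followed in 3 dissected regions of the mouse brain. Members were chosen by gene symbol, and every probe whose symbol on the array was one of the 9, in any letter case, was taken. This gave 19 probes of 45281 on the array, for 9 genes of 30869 symbols. Of the 19 probes, 14 were measured well enough to be tested in at least 1 region and 5 in none. Adult male mice, C57BL/6J by the labels and C57BL/6 from more than 1 supplier by the study's methods, received 10 daily intraperitoneal injections of vehicle (saline with PEG-400 and DMSO, 7.5 mL/kg), Cpd-60 at 45 mg/kg in 7.5 mL/kg, SAHA at 25 mg/kg in 5 mL/kg or CI-994 at 10 mg/kg in 5 mL/kg. Cpd-60 is a benzamide inhibitor of the histone deacetylases HDAC1 and HDAC2, CI-994 is another benzamide inhibitor of histone deacetylases, and SAHA is a hydroxamate that blocks several of these enzymes. Brains were taken 1 h after the last injection, and the hippocampus (HIP), the nucleus accumbens (NAc) and the medial part of the prefrontal cortex (PFC) were dissected from the frozen tissue. The RNA of 2 mice made a pool, and 3 pools of each of 4 treatments in each of 3 regions gave 36 Illumina MouseWG-6 arrays. A pool of a given treatment and number came from the same mice in every region, so there were 12 pools in all. No array was of isolated choroid plexus, and p-values therefore measure the spread between pools of dissected tissue.

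The choroid plexus is a sheet of secretory epithelium that hangs in the ventricles and makes cerebrospinal fluid. In the lateral ventricle it lies along the fimbria, at the edge of the hippocampus, whereas neither the medial PFC nor the NAc contains it. Its epithelium makes large amounts of transthyretin (Ttr), the carrier of thyroid hormone and retinol-binding protein in cerebrospinal fluid. The other members stand for the main tasks of the tissue. Enpp2 (autotaxin) is a secreted enzyme that makes lysophosphatidic acid and is also made by oligodendrocytes, Sostdc1 is a secreted antagonist of BMP and Wnt signalling, and Kl (klotho) is a co-receptor for FGF23. Folr1 is the folate receptor alpha, Prlr is the prolactin receptor, Aqp1 is a water channel, Clic6 belongs to the chloride intracellular channel family, and Otx2 is a homeodomain transcription factor needed for the choroid plexus to form. In bulk tissue, fewer cells of a type and less RNA per cell cannot be told apart.

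A promoter search covered 4 members and left out the others, Ttr among them, so its counts say nothing about those. The sequences used were 9 windows of RefSeq transcripts of Kl, Otx2, Aqp1 and Prlr, build GRCm38.p6. They are shown because Kl, Otx2 and a probe of Aqp1 split with Ttr on the HIP arrays, as given below, whereas Prlr at its main probe did not, and because Otx2 is itself a factor that binds DNA. The 250 bases that end at the annotated start of each gene, 5′ to 3′ on the gene's strand, read as follows.
Kl, chr5:150952357-150952606, plus strand: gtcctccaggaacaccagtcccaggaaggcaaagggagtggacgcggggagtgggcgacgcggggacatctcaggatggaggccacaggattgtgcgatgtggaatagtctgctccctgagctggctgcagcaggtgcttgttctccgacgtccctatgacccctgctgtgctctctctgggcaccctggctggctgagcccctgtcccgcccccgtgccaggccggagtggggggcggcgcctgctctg
Otx2, chr14:48667645-48667894, minus strand: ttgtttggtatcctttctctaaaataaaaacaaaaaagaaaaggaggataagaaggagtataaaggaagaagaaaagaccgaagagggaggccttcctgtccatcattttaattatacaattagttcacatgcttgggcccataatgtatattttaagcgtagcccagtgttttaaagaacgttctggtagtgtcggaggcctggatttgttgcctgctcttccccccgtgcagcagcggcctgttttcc
Aqp1, chr6:55336049-55336298, plus strand: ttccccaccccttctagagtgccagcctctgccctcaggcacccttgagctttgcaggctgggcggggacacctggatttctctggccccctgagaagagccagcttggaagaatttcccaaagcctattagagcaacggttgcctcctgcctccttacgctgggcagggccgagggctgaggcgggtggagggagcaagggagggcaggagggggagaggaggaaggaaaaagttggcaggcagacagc
Prlr, chr15:10176988-10177237, plus strand: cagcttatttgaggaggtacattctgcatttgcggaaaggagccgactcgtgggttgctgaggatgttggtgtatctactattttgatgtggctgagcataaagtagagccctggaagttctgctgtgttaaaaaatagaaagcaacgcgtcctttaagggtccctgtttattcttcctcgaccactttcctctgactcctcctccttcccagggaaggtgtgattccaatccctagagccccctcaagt
These windows were searched on both strands for TAATCC, the core bound by homeodomain proteins of the Otx class, and for TGTTTAC, a core bound by forkhead proteins. Neither was present in the 4 windows above. Among the 9 member windows, which include starts of other transcripts, 1 held TAATCC, in Otx2, and 1 held TGTTTAC, in Prlr. The 30 bases around each are given with the match in capitals, the TAATCC being read from the opposite strand.
Otx2, chr14:48665303-48665332, minus strand, TAATCC match: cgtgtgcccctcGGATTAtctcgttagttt
Prlr, chr15:10223679-10223708, plus strand, TGTTTAC match: cgtgcatcaaagTGTTTACtcgacccagat
The match in Otx2 begins 211 bases before its transcript start and the match in Prlr begins 215 bases before. Of all 32851 windows, 6.25% held TAATCC and 3.17% held TGTTTAC, so a match in 1 of 9 windows is a description and not a binding site.

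Before normalization the median probe intensity of the 36 arrays ran from 82.2 to 108.3, and between 37.0% and 47.7% of probes were detected. Correlations between arrays ran from 0.935 to 0.995, and no pair of arrays held identical values. Arrays lay on 6 BeadChips, the glass slides that carry 6 arrays each, with 2 BeadChips per region. In every region the first BeadChip held vehicle pools 1 and 2, Cpd-60 pools 1 and 2, SAHA pool 1 and CI-994 pool 1, and the second held the remaining 6 pools. The same mice were thus always on the first or always on the second BeadChip, and BeadChip and animals cannot be told apart. On the HIP arrays most choroid plexus genes split by BeadChip, as described below, so the differences between the HIP and the other regions are also given for 1 BeadChip at a time where that moved them most. The second Cpd-60 pool carries 2 different mouse numbers in its labels, and the one in its title was used.

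Ttr set the HIP apart from the other regions. Its quantile-normalized intensity ran from 172 (median 319) to 739 over the 12 PFC arrays. Over the 12 NAc arrays it ran from 153 (median 258) to 1145, and over the 12 HIP arrays from 963 (median 6142) to 10278. Ttr was higher in the HIP than in the PFC in 12 of 12 pools, and the lowest HIP array was above the highest PFC array but below the highest NAc array. The difference was 3.84 on the log2 scale (SE 0.37, 14.4-fold, limma adjusted p = 1.78e-09) for HIP minus PFC and 4.06 (16.6-fold, limma adjusted p = 4.77e-10) for HIP minus NAc. NAc and PFC did not differ beyond the spread between pools (NAc minus PFC -0.21, adjusted p = 0.69), with 6 of 12 pools higher in the NAc. On the first BeadChips alone Ttr differed by 4.89 for HIP minus PFC and 5.27 for HIP minus NAc, and on the second alone by 2.57 and 2.89, all past the threshold of an adjusted p under 0.05. The plot of normalized intensity by array shows these levels beside those of Enpp2 and Clic6.

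**Figure D1:**
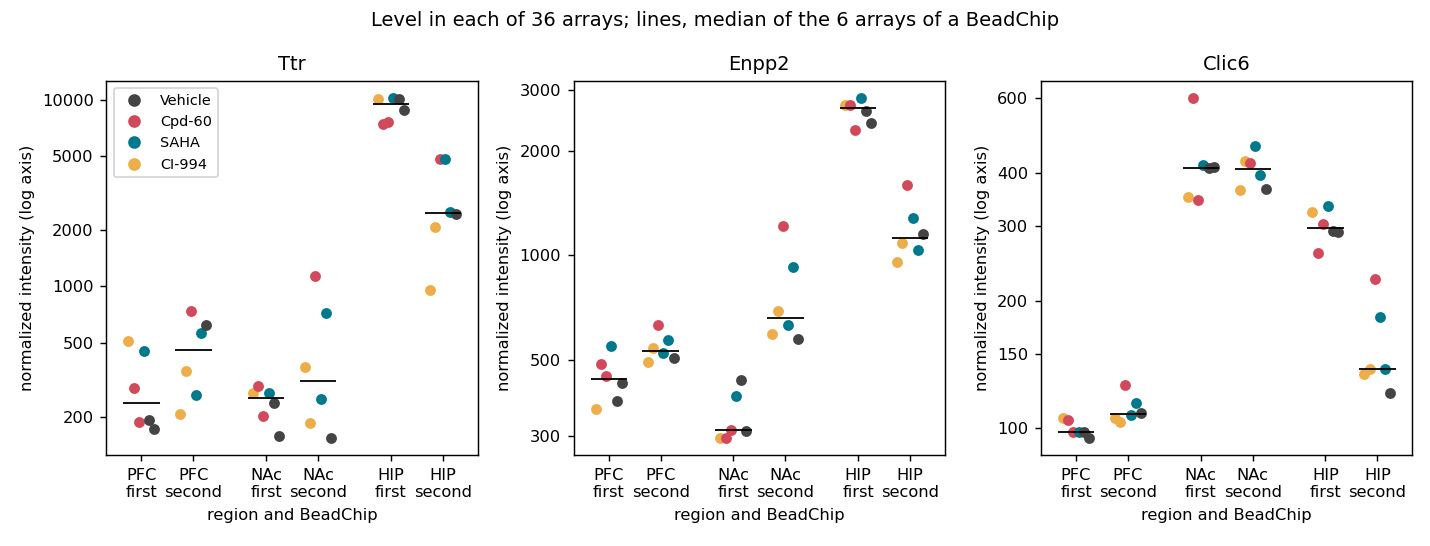
Normalized intensity (y axis, log axis, its own range in each panel) of Ttr, Enpp2 and Clic6 on each of 36 arrays, by region and BeadChip (x axis); points are pools, colours are treatments and lines are the median of the 6 arrays of a BeadChip. In the HIP the 6 pools of the first BeadChip lay above those of the second for all 3 genes, in the NAc Enpp2 had the opposite order, and Clic6 was highest in the NAc.

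Enpp2, the other member with a strong signal, ran from 360 (median 497) to 629 on the PFC arrays and from 296 (median 505) to 1218 on the NAc arrays. On the HIP arrays it ran from 957 (median 1944) to 2840. All HIP arrays were above all PFC arrays, while the NAc range reached into the HIP range. HIP exceeded PFC by 1.84 on the log2 scale (SE 0.23, 3.58-fold, limma adjusted p = 1.94e-07) and NAc by 1.80 (limma adjusted p = 3.23e-07). On the first BeadChips alone these Enpp2 differences were 2.59 and 2.96, and on the second alone they were 1.15 and 0.67, again all past the threshold. A second Enpp2 probe gave 0.73 (limma adjusted p = 1.07e-05) for HIP minus PFC. Enpp2 is also an oligodendrocyte gene, and 9 of 9 tested myelin genes were higher in the HIP than in the PFC, with a median log2 difference of 1.02. The part of myelin in the Enpp2 difference was not tested.

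Among the receptors, Kl ran from 87.3 (median 103) to 110 on the PFC arrays, from 97.9 (median 115) to 131 on those of the NAc, and from 144 (median 213) to 283 on those of the HIP. Every HIP array lay above every array of the other regions, and the log2 differences were 0.99 (SE 0.083, limma adjusted p = 1.15e-10) against the PFC and 0.85 (limma adjusted p = 1.82e-09) against the NAc. For Kl they were 1.27 and 1.10 on the first BeadChips alone and 0.73 and 0.61 on the second alone. Folr1 was detected on 0 of 12 PFC arrays, 3 of 12 NAc arrays and 10 of 12 HIP arrays with its brighter probe, at 91.0 (median 118) to 186 in the HIP. This probe was not above background in the PFC, so HIP was at least 1.2-fold higher on it by the means of the 12 arrays of each region. HIP minus PFC was 0.69 on the first BeadChips alone and 0.13 (limma adjusted p = 0.11) on the second alone. HIP exceeded NAc by 0.39 on the log2 scale (limma adjusted p = 4.09e-04). The probe passed the detection filter in the HIP alone, so the filter favoured a higher HIP value and these p-values are descriptions. HIP minus NAc was 0.65 on the first BeadChips alone and 0.19 on the second alone. The other Folr1 probe was detected on 5 of 12 PFC arrays, 1 of 12 NAc arrays and 9 of 12 HIP arrays, and HIP minus PFC was 0.20 on it (1.15-fold, limma adjusted p = 0.0044). This other probe passed the filter in each region, with HIP minus NAc at 0.28 (limma adjusted p = 3.26e-04). The Prlr probes disagreed. The probe with the higher mean signal over the 36 arrays was detected everywhere and nearly level, with PFC arrays at 119 to 156, NAc arrays at 106 to 137 and HIP arrays at 112 to 140, and was lower in the HIP than in the PFC by a small margin (-0.11, limma adjusted p = 0.027). A second Prlr probe, detected on 1 PFC array, 9 NAc arrays and 12 HIP arrays, was higher in the HIP by 0.55 against the PFC (limma adjusted p = 9.12e-06) and by 0.28 against the NAc (limma adjusted p = 0.015). This second probe missed the filter in the PFC, which favoured a higher HIP value against the PFC.

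The remaining members were mostly near the detection limit outside the HIP. Sostdc1 was detected on 4 of 12 PFC arrays and 6 of 12 NAc arrays and ran from 122 (median 147) to 239 in the HIP, with a log2 difference of 0.74 (SE 0.10, limma adjusted p = 8.02e-07) against the PFC and 0.66 (limma adjusted p = 5.85e-06) against the NAc. For Sostdc1 these were 1.02 and 1.04 on the first BeadChips alone and 0.48 and 0.32 on the second alone. Its probe missed the detection filter in the PFC, which favoured a higher HIP value against the PFC. Otx2 was detected on 1 PFC array, 10 NAc arrays and 10 HIP arrays, and it was higher in the HIP by 0.36 against the PFC (limma adjusted p = 2.55e-05) and by 0.17 against the NAc (limma adjusted p = 0.035). These Otx2 ranges overlapped, with PFC arrays at 86.3 to 108, NAc arrays at 98.7 to 125 and HIP arrays at 99.0 to 148. Its difference from the NAc was 0.44 on the first BeadChips alone and -0.08 (adjusted p = 0.23) on the second alone, and it also missed the threshold without vehicle pool 1 or 2, Cpd-60 pool 1 or 2, SAHA pool 1 or CI-994 pool 1, at 0.11 to 0.15. Aqp1 was detected on 4 PFC, 4 NAc and 11 HIP arrays, with HIP higher by 0.25 (limma adjusted p = 0.0010) and 0.29 (limma adjusted p = 2.78e-04) on its brightest probe.

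Clic6 had a different order of regions. PFC arrays read 94.7 (median 105) to 126, HIP arrays 121 (median 242) to 334 and NAc arrays 345 (median 412) to 601. Every NAc array lay above every HIP array, and the NAc exceeded the PFC by 1.96 on the log2 scale (SE 0.15, 3.90-fold, limma adjusted p = 8.73e-12), in 12 of 12 pools. HIP minus NAc was -0.94 (limma adjusted p = 9.17e-06), with 0 of 12 pools higher in the HIP. It was -0.41 on the first BeadChips alone and -1.37 on the second alone, both past the threshold, and -0.87 (adjusted p = 0.076) in the 3 vehicle pools. Against the PFC the HIP was higher by 1.02 (limma adjusted p = 1.91e-06), and this was 1.61 on the first BeadChips alone and 0.47 on the second alone.

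**Figure D2:**
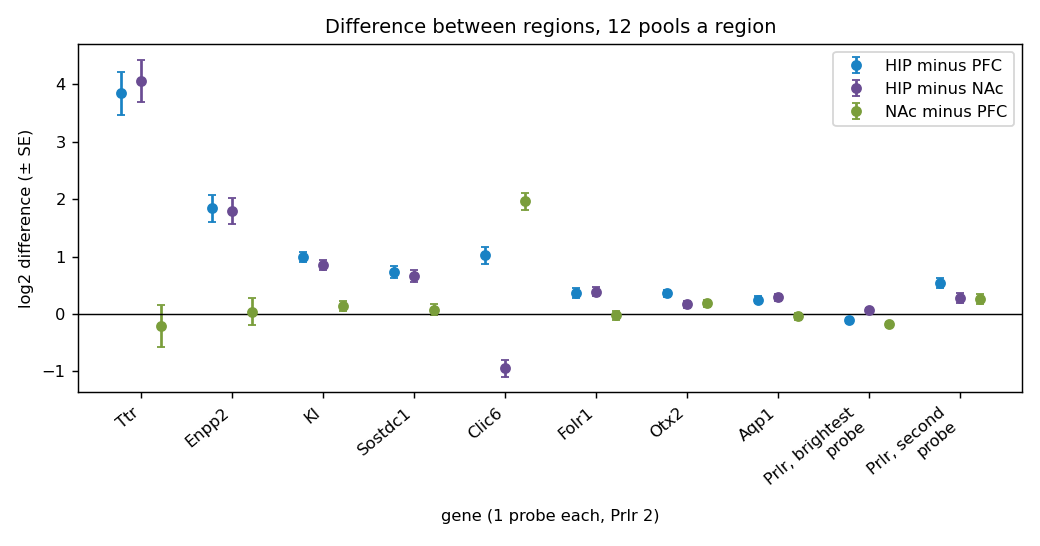
Log2 difference between regions (y axis, bars are standard errors) for the 9 genes (x axis, 1 probe each and 2 for Prlr), from 12 pools a region, with colours for HIP minus PFC, HIP minus NAc and NAc minus PFC; the Folr1 probe shown was not above background in the PFC. The highest values were those of Ttr (3.84 and 4.06), and Clic6 was the gene with HIP below NAc (-0.94).

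Counting 1 probe per gene, 8 of 9 members were called higher and 1 (Prlr) lower in HIP minus PFC, where 20.5% of all tested probes were higher and 26.3% lower. For HIP minus NAc 7 were higher and 1 (Clic6) lower, against 15.3% and 17.9% of all tested probes. For NAc minus PFC 2 (Clic6 and Otx2) were higher and 1 (Prlr) lower, against 20.6% and 21.3%. The median log2 difference of the members was 0.74, 0.39 and 0.04 in these comparisons, beside -0.02, 0.00050 and -0.01 over all tested probes. In NAc minus PFC the second Prlr probe went the other way from the counted one, at 0.27 (limma adjusted p = 0.015). It was higher in the NAc in 12 of 12 pools, though it missed the filter in the PFC. The Folr1 probe passed the detection filter in the HIP alone and that of Sostdc1 missed it in the PFC. The filter thus favoured their calls as higher in the HIP. On the first BeadChips alone 8 members were higher in HIP minus PFC and on the second alone 6 were, the members lost being Folr1 (0.13) and Aqp1 (0.10). The lower call of Prlr was absent on either BeadChip alone (adjusted p = 0.063 and 0.26), and likewise without vehicle pool 2, Cpd-60 pool 2 or 3, SAHA pool 3 or CI-994 pool 1, where adjusted p ran from 0.052 to 0.12. Of 28 tested genes of a further choroid plexus list, 14 were higher and 5 lower in HIP minus PFC, and 19 were higher and 4 lower in HIP minus NAc. Those lower in HIP minus PFC included Slc13a4 (-0.55, limma adjusted p = 4.61e-06) and Igf2 (-0.41, limma adjusted p = 0.0064). Both were higher in HIP minus NAc, at 0.65 and 0.48. That list also holds genes that neurons make, such as Atp1b1. What set the lower values was not tested.

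Within the HIP, Ttr split the 12 pools by BeadChip. The 6 arrays of the first BeadChip lay between 7438 and 10278, and the 6 of the second between 963 and 4846, with no overlap. Ttr read 10191, 8841 and 2443 in vehicle pools 1 to 3, and 7438, 7602 and 4831 in Cpd-60 pools 1 to 3. It read 10278, 4846 and 2510 in SAHA pools 1 to 3, and 10191, 963 and 2076 in CI-994 pools 1 to 3. In each treatment, therefore, every pool on the first BeadChip was above every pool on the second, and low values occurred in vehicle and in drug pools alike. The raw intensities showed the same gap, at 7704 to 11203 on the first BeadChip and 1206 to 4977 on the second. The brightest Ttr reading, 11203 in vehicle pool 1, was below the highest probe of that array, which read 14776.

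**Figure D3:**
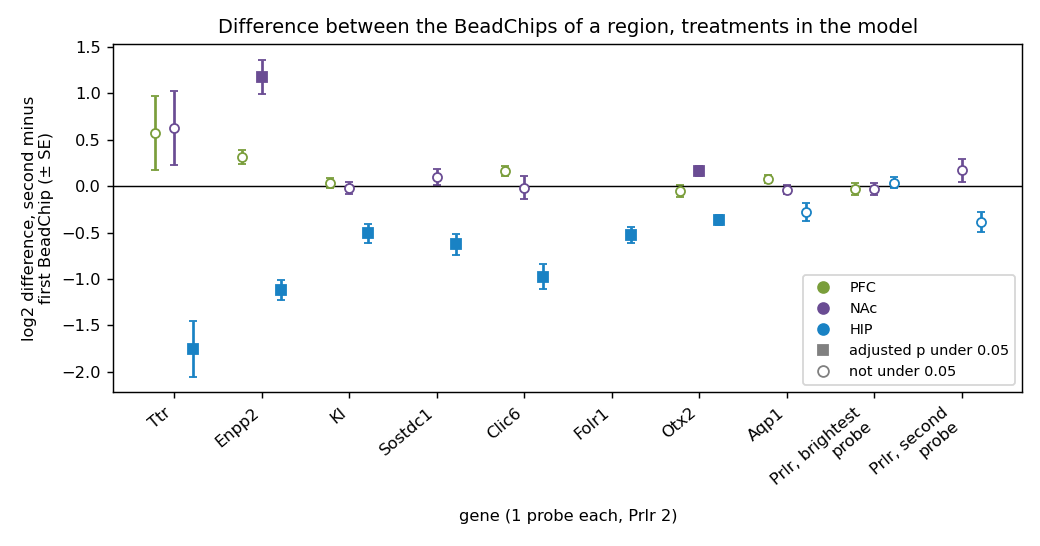
Log2 difference between the second and the first BeadChip of a region (y axis, bars are standard errors) for each gene (x axis, 1 probe each and 2 for Prlr), with treatment in the model; colours are regions, filled squares passed an adjusted p under 0.05, open circles did not, and probes not tested in a region are left out. In the HIP, Ttr (-1.75), Enpp2 (-1.12) and Clic6 (-0.98) lay farthest below 0, and in the NAc Enpp2 lay above 0 (1.18).

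The comparison of BeadChips was chosen after seeing the data, so its p-values and counts are descriptions. With treatment in the model, Ttr in the HIP was lower on the second BeadChip by a log2 difference of -1.75 (SE 0.30, 3.37-fold, limma adjusted p = 0.018), the lowest coefficient of 23275 tested probes. Enpp2 had the lowest but one, at -1.12 (SE 0.11, limma adjusted p = 8.85e-04), with 2290 to 2840 on the first BeadChip and 957 to 1597 on the second. Clic6 had the 4th lowest, at -0.98 (limma adjusted p = 0.0059), with 259 to 334 on the first and 121 to 225 on the second. None of these 3 genes overlapped between the BeadChips. The share of all tested HIP probes without such overlap is not given, so these gaps are descriptions. Sostdc1 (-0.63), Folr1 (-0.53), Kl (-0.51) and Otx2 (-0.37) were also called lower, at limma adjusted p from 0.0097 to 0.034, though single pools of Kl and Sostdc1 overlapped. For Kl, Cpd-60 pool 3 on the second BeadChip (216) exceeded Cpd-60 pool 2 on the first (210).

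In all, 7 of 9 members were called lower on the second HIP BeadChip and 0 higher, where 1.03% of all tested HIP probes were lower and 0.163% higher. Aqp1 at its brightest probe (-0.28, adjusted p = 0.23) and Prlr at its main probe (0.04, adjusted p = 0.84) did not pass, while a second Aqp1 probe did (-0.39, limma adjusted p = 0.023). The second Prlr probe was also lower, at -0.39, but did not pass (limma adjusted p = 0.12). The median difference of the 9 members was -0.53, against 0.0040 over all tested probes. The 95th percentile of raw intensity overlapped between these BeadChips, at 593.6 to 839.6 on the first and 437.7 to 850.1 on the second.

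Other genes of the choroid plexus moved with them. Of 26 tested genes of the further list, 7 were called lower on the second HIP BeadChip and 0 higher, with a median of -0.25. They included 1500015O10Rik (-0.94), the sulfate transporter gene Slc13a4 (-0.45), the potassium channel subunit gene Kcne2 (-0.42) and Lbp (-0.39), which encodes a protein that binds lipopolysaccharide. Slc13a4 was, as given above, lower in the HIP than in the PFC. No gene passed among 7 of the ependyma, 7 of the meninges, 9 of myelin, 6 of the endothelium, 3 of blood, 4 of the hippocampus, 4 of the thalamus, 4 of the septum, 6 of the striatum or 2 of the cortex. The summed level of the myelin genes was 25656 to 29839 on the first HIP BeadChip and 23197 to 27748 on the second, and that of the ependymal genes was 1103 to 1275 and 1034 to 1135. Septal genes summed to 479 to 940 on the first and 440 to 499 on the second, so they too reached higher on the first. These ranges overlapped between the BeadChips. The summed level of the 9 members was 11060 to 14513 on the first and 2763 to 7495 on the second. Ttr alone, at 7438 to 10278 and 963 to 4846, made up much of that sum. The summed level of 28 genes of the further choroid plexus list overlapped, at 12575 to 14386 on the first and 11329 to 13403 on the second. Their mean log2 level did not overlap, at 7.71 to 7.81 on the first and 7.43 to 7.58 on the second. What set the level of choroid plexus RNA on the HIP arrays, such as how much of the plexus stayed with the tissue, was not measured.

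The PFC and NAc gave other values, though whether the split itself differed between regions was not tested. In the PFC 0 members passed in either direction, where 0.144% of all tested probes were higher and 0% lower on the second BeadChip, and Ttr differed by 0.57 (adjusted p = 0.72). In the NAc 2 members were higher on the second BeadChip and 0 lower, where 11.6% of all tested probes were higher and 11.3% lower. These were Enpp2 (1.18, limma adjusted p = 9.61e-04) and Otx2 (0.16, limma adjusted p = 0.046), whereas Ttr differed by 0.63 (adjusted p = 0.31). Enpp2 in the NAc ran from 296 to 435 on the first BeadChip and from 574 to 1218 on the second, the reverse of its order in the HIP. On the NAc arrays 2 of 9 tested myelin genes were also called higher on the second BeadChip, among them Mobp (1.04), with a median of -0.03 over the 9, and so were 2 of 2 tested septal genes, Zic1 (1.37) and Dlk1 (0.61). The summed level of the myelin genes overlapped, at 15106 to 21555 on the first NAc BeadChip and 17504 to 24606 on the second. The part of these genes in the Enpp2 difference was not tested. Enpp2 was accordingly lower in the NAc than in the PFC on the first BeadChips (-0.37, limma adjusted p = 0.0015) and higher on the second (0.49, limma adjusted p = 0.0036).

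Ttr was among the most variable probes in every region. Its standard deviation between pools within a treatment, on the log2 scale, was 0.84 in the PFC, the 7th highest of 22156 tested probes. In the NAc it was 0.85, the 74th highest of 23242, and in the HIP it was 1.17, the 3rd highest of 23275. The median over all tested probes was 0.10, 0.12 and 0.10. With the BeadChip in the model the HIP value fell to 0.63, still above 99.9% of probes. The highest array exceeded the lowest by 4.30-fold (PFC), 7.48-fold (NAc) and 10.7-fold (HIP). Enpp2 had a standard deviation of 0.68 in the HIP and 0.22 once the BeadChip was in the model, and Clic6 had 0.62 and 0.27.

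In the NAc the high Ttr values came from a few pools, while in the PFC higher and lower values occurred in every treatment. Ttr in the PFC read 192, 172 and 620 in vehicle pools 1 to 3, 284, 187 and 739 in the Cpd-60 pools, 453, 261 and 561 in the SAHA pools, and 510, 207 and 353 in the CI-994 pools. In the NAc it read 238, 158 and 153 in the vehicle pools, 291, 203 and 1145 in the Cpd-60 pools, 267, 249 and 723 in the SAHA pools, and 270, 371 and 184 in the CI-994 pools. Cpd-60 pool 3 was thus the highest of 12 pools in both regions, and vehicle pool 3 was high in the PFC and the lowest in the NAc. Across the 12 pools, Ttr in the NAc and in the PFC had a Pearson r of 0.51 (permutation p = 0.093) and a Spearman rho of 0.39 (permutation p = 0.21), and r was 0.55 without the 2 farthest pools. Within BeadChips of 6 pools each, r was 0.73 and 0.39.

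The other members were set against Ttr across the 12 pools of the PFC and of the NAc, 16 relations in all, and none passed after adjustment (lowest adjusted p 0.066, permutation test). The arrays of a region share RNA handling and normalization, so these values are descriptions. In the PFC, Clic6 (r 0.73, rho 0.72) and Kl (r 0.67, rho 0.66) had the highest values, which were 0.60 and 0.76 without the 2 pools farthest from the median. In the NAc the highest were those of Enpp2 (r 0.67, rho 0.29), Otx2 (r 0.64, rho 0.34), Kl (r 0.58, rho 0.60) and Sostdc1 (r 0.57, rho 0.26). Without Cpd-60 pool 3 and SAHA pool 3, r was -0.05 for Enpp2, -0.06 for Otx2 and -0.22 for Sostdc1, which thus rested on those pools, and 0.44 for Kl. Because HIP Ttr fell into separate clusters, no pooled value is given there. Within the first HIP BeadChip r ran from -0.12 to 0.93 and within the second from -0.45 to 0.90, with 7 of 8 members above 0 in each and a lowest adjusted p of 0.13 and 0.093 (exact permutation test, 6 pools). The plot of members against Ttr shows 3 of them.

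**Figure D4:**
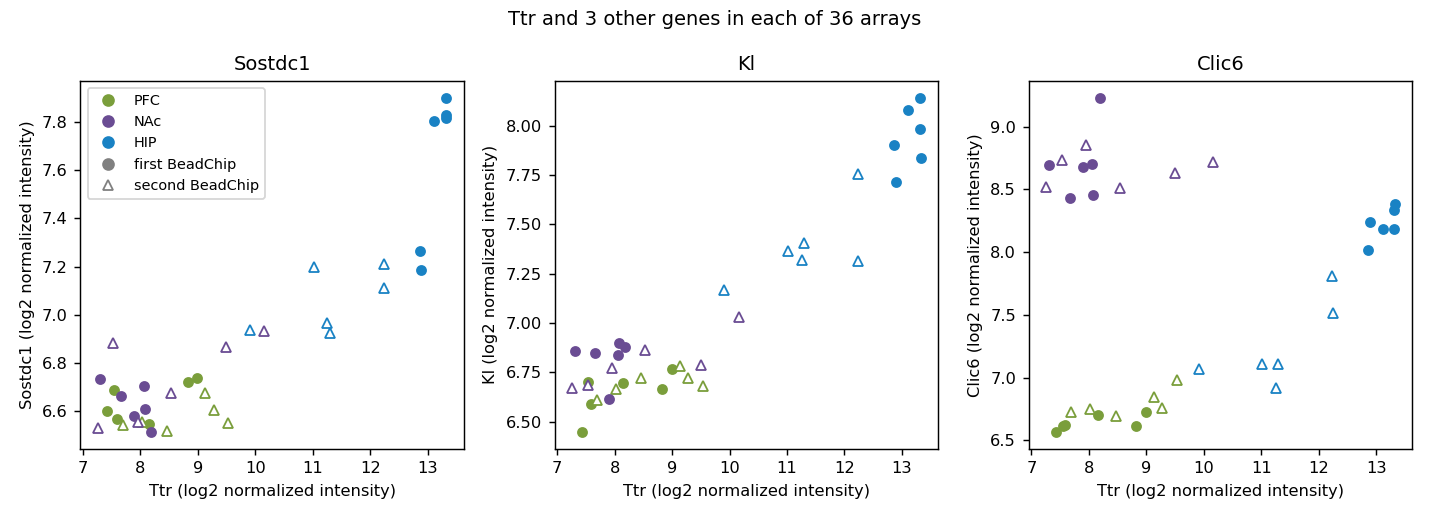
Normalized log2 intensity of Sostdc1, Kl and Clic6 (y axes) against that of Ttr (x axis) on each of 36 arrays; colours are regions, filled circles are the first and open triangles the second BeadChip of a region. HIP pools of the second BeadChip lay to the left of and mostly below those of the first in each panel, and Clic6 in the NAc was high at all levels of Ttr.

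Drug treatment changed no member past the threshold. For every drug in every region 0 members had an adjusted p under 0.05, as did 0% of all tested probes. At an unadjusted p under 0.05 the share of all tested probes was 5.19% for Cpd-60, 2.25% for SAHA and 3.98% for CI-994 in the PFC. For the same drugs it was 4.77%, 2.05% and 1.99% among NAc probes and 5.26%, 9.37% and 3.24% among HIP probes. Only Kl in the NAc with Cpd-60 was under that unadjusted threshold among members (0.21 on the log2 scale, SE 0.083, unadjusted p = 0.031, limma adjusted p = 1.0), and its change, 1.15-fold, did not reach 1.2-fold. The standard errors of the Ttr differences from vehicle were wide. They were 0.55, 0.60 and 0.78 in the PFC, NAc and HIP, so a Ttr difference of 1 log2 unit lay within 2 standard errors of 0 in each region.

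**Figure D5:**
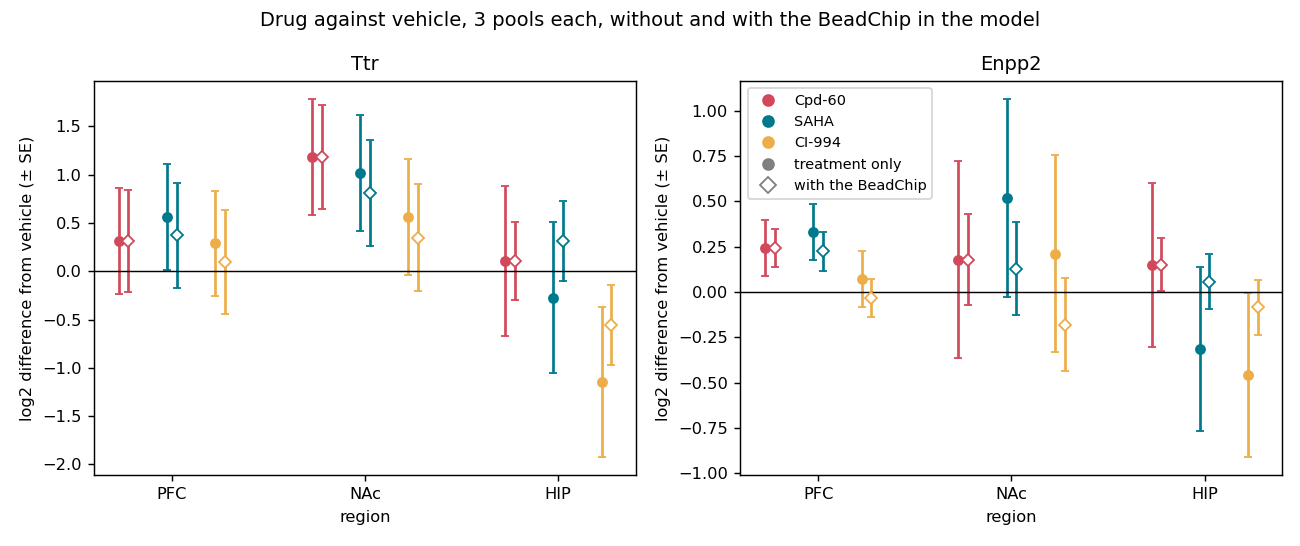
Log2 difference from vehicle (y axis, bars are standard errors, its own range in each panel) of Ttr and Enpp2 by region (x axis) for 3 drugs (colours), 3 pools each, with treatment only (filled circles) and with the BeadChip in the model (open diamonds). For Ttr in the HIP the value moved from -0.27 to 0.31 for SAHA and from -1.14 to -0.56 for CI-994 once the BeadChip was in the model.

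In the HIP the Ttr difference from vehicle was 0.10 with Cpd-60, -0.27 with SAHA and -1.14 with CI-994 (SE 0.78 each, limma adjusted p 0.92 to 1.0). The vehicle and Cpd-60 groups each had 2 of 3 pools on the first BeadChip, and the SAHA and CI-994 groups had 1 of 3. With the BeadChip as a block the differences were 0.10, 0.31 and -0.56, so that of SAHA changed sign and that of CI-994 fell in size. Within the first BeadChip they were -0.34, 0.11 and 0.10, and within the second 0.98, 0.51 and -0.79. Enpp2 in the HIP differed from vehicle by 0.15, -0.32 and -0.46, and by 0.15, 0.06 and -0.08 with the BeadChip as a block.

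In the NAc Ttr differed from vehicle by 1.18 with Cpd-60 (SE 0.60, unadjusted p = 0.076, limma adjusted p = 1.0), 1.02 with SAHA and 0.56 with CI-994, and all 3 SAHA pools were above all 3 vehicle pools. The Cpd-60 value rested in large part on 1 pool, since it was 0.44 without Cpd-60 pool 3. In the PFC the Ttr differences were 0.31, 0.56 and 0.29 (SE 0.55). There, within the first BeadChip (1 pool of each drug, 2 of vehicle) SAHA and CI-994 stood 1.32 and 1.49 above vehicle. Within the second (2 pools of each drug, 1 of vehicle) they stood at -0.70 and -1.20. With so few pools, the BeadChip and single pools cannot be told apart. Without vehicle pool 3 the PFC differences over both BeadChips were 1.15 for SAHA and 0.88 for CI-994. Drug and vehicle pools did not overlap for Folr1 with Cpd-60 in the PFC (lower, on the probe tested there), Enpp2 with SAHA in the PFC (higher), and Aqp1 and Ttr with SAHA in the NAc (higher). Among all tested probes 9.68%, 8.68% and 7.11% did not overlap in these 3 comparisons.

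The drug effect in the HIP was also compared with the mean effect in the PFC and NAc. No member and 0% of all tested probes passed. For Ttr this difference of effects was -0.64 for Cpd-60, -1.06 for SAHA and -1.57 for CI-994 (SE 0.91, unadjusted p = 0.48, 0.25 and 0.095, limma). At an unadjusted p under 0.05 stood Kl, at -0.43 for SAHA and -0.45 for CI-994 (limma unadjusted p = 0.043 and 0.035, limma adjusted p = 0.67 and 1.0). The share of all tested probes under that unadjusted threshold is not given here, so the Kl values are descriptions. The pools that enter both sides are the same mice, and the BeadChip split of the HIP enters 1 side only.

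Members apart, the genes whose deviations from the mean of their region and treatment were most like those of Ttr over the 36 arrays were Cdr2 (r 0.75), Tmem178 (0.73), Wfdc10 (0.72), Cyb5 (0.71), 1110059M19Rik (0.71), 1500015O10Rik (0.71), Ppp1r14c (0.70), Kcne2 (0.70), Pkib (0.70) and Ppard (0.69). Of these 10 genes, 2 were on the further choroid plexus list. The values over 36 arrays include the split between the HIP BeadChips. All 10 genes were lower on the second HIP BeadChip, with log2 differences from -0.11 to -0.94. Of the members themselves, Enpp2 and Kl had 0.74, Sostdc1 0.73, Clic6 0.66, Otx2 0.61, Folr1 0.57 and Aqp1 0.55. Prlr had 0.68 on its second probe and -0.16 on its main one. On the HIP arrays alone the same measure, again without members, was highest for A530082C11Rik, LOC100040671, LOC100039786, the growth factor gene Igf2 and Txn2. It is not printed for the HIP, since it follows the split between the BeadChips: all 5 were lower on the second HIP BeadChip, with log2 differences from -0.15 to -0.49. On the 12 PFC arrays the 5 highest that were not members ran from 0.97 to 0.98 and began with Ccl25, and on the 12 NAc arrays they ran from 0.91 to 0.97 and began with 1700016D06Rik, and none of these 10 was on the choroid plexus list. These correlations are descriptions over arrays that share BeadChips and normalization.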

How the data were processed

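Per the labels the authors extracted RNA with Trizol and cleaned it on RNeasy columns, while the study's methods name an RNeasy kit for lipid tissue. They labelled cRNA with biotin and hybridised it to Illumina MouseWG-6 arrays. The deposited table holds, per the file headers, an intensity for each probe and array on a linear scale, not normalized, beside a detection p-value that the authors' software gave. Intensities of 36 arrays were quantile-normalized together, values under 1 were set to 1, and log2 was taken, so fold changes of dim probes are understated. The study's methods used 27 arrays, without CI-994. Tests in a region took the probes for which all 3 arrays of some treatment had a detection p no higher than 0.2, and a probe counts as detected under 0.05. The tests covered 22156 (PFC), 23242 (NAc) and 23275 (HIP) probes, 26594 of them distinct. Drugs were compared with vehicle by limma 3.58.1 in R 4.3.3 within each region (12 arrays), BeadChips by the same fit with treatment in the model, and regions and differences of effects in 1 fit of 36 arrays with the pool as a random block. P-values were adjusted by Benjamini-Hochberg over all tested probes of a comparison, at a threshold of 0.05, or unadjusted with a change of at least 1.2-fold. Where a gene had more than 1 tested probe, the one brightest on average stands for it. Correlations used 100000 resamples, or all 720 orders within a BeadChip. The number of arrays limits the precision. Code was tested on simulated data.

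The members and gene lists were chosen with earlier results of these data known. All 9 members are named, with every tested probe considered. Of other lists, at most 4 genes past the threshold and otherwise the 2 with the largest change are named, as are the 10 genes most like Ttr over all arrays and the 5 most like it in each region. Of 30869 symbols, 22039 matched RefSeq, including 9 of 9 members. Pools of the same number in different treatments came from different mice, but all pools 1 were on the first and all pools 3 on the second BeadChip of a region. Alternatives were neqc normalization, 27 arrays, stricter or no detection filter, BeadChip or pool-number blocks, vehicle pools only and leaving out each pool. Fits on 1 BeadChip of each region and the comparison of BeadChips were added after seeing the data. So was the standard deviation of Ttr with the BeadChip in the model.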

Additional observations from a re-analysis of the deposited data

How the results depend on the processing

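With 12 pools left out in turn and the other settings, 1746 of the recomputed values kept their direction and side of the threshold, 48 became weaker (past the threshold no longer, or a count lower by over 1.5 times), 25 stronger, and 37 changed sign. Some of these values could not move, since leaving out a pool of another drug gives the same difference from vehicle. The first of these counts is therefore no measure of robustness. Pools of the same number were different mice, and correlations between them had medians from -0.29 to 0.52. Pools 1 and pools 3 each shared a BeadChip, and all correlations were above 0 for pool 1 in the NAc and pool 3 in the NAc and HIP (lowest 0.33, 0.28 and 0.22), so the replicate block there also carries the BeadChip. Members past 1.2-fold whose unadjusted p was under 0.05, 0 in each comparison as reported, were 1 with the replicate block for SAHA in the PFC and 1 for CI-994 in the HIP. They were 1 without CI-994 (27 arrays) and 1 with no detection filter for SAHA in the PFC, 1 with neqc normalization for Cpd-60 in the PFC, 2 with neqc and 1 with the BeadChip as a block for Cpd-60 in the NAc, and 1 with the BeadChip for Cpd-60 in the HIP. Over the pools left out these counts ran from 0 to 2 for SAHA in the PFC and Cpd-60 in the NAc, 0 to 1 for SAHA in the NAc and Cpd-60 and SAHA in the HIP, and 0 to 3 for CI-994 in the HIP. The share of all tested probes past the same cut-off in these settings is not given. These counts therefore cannot be set against it and are descriptions. The causes were not tested.

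With the BeadChip as a block 4 differences from vehicle changed sign, those of Enpp2 with CI-994 in the PFC (-0.034) and NAc (-0.18), and of Ttr (0.31) and Enpp2 (0.057) with SAHA in the HIP. With pools left out in turn, Ttr ran from -0.25 to 0.90 with Cpd-60 in the PFC, -0.047 to 0.88 with CI-994 in the PFC, -0.55 to 0.48 with Cpd-60 in the HIP and -0.92 to 0.23 with SAHA in the HIP. Enpp2 ran from -0.047 to 0.24 with CI-994 in the PFC, -0.49 to 0.53 with Cpd-60 and -0.028 to 0.58 with CI-994 in the NAc, and -0.22 to 0.36 with Cpd-60 in the HIP. The difference of Cpd-60 effects on Ttr between HIP and the other regions ran from -1.53 to 0.22.

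Of the regional counts, members lower in HIP minus PFC fell to 0 with the BeadChip as the random block, with vehicle pools only and on either BeadChip alone, and were 0 to 1 with a pool left out. With vehicle pools only, further choroid plexus genes in HIP minus PFC were 7 higher and 2 lower, and in HIP minus NAc 10 were higher, while members lower were 0 there and in NAc minus PFC. On the second BeadChips alone 6 and 12 further genes were higher in HIP minus PFC and HIP minus NAc. Members higher in NAc minus PFC were 1 with 27 arrays and 1 with vehicle pools only, and 1 to 2 with a pool left out (1 without Cpd-60 pool 3, where Otx2 was 0.16 at adjusted p 0.054). Members lower were 2 on the first BeadChips alone. Small differences changed sign: Prlr in HIP minus NAc (-0.00022) and Enpp2 in NAc minus PFC (-0.024) with vehicle pools only, Folr1 in NAc minus PFC with 27 arrays (0.0087), and Otx2 in HIP minus NAc on the second BeadChips (-0.083). On the first BeadChips NAc minus PFC was 0.034 for Folr1, -0.37 for Enpp2, -0.026 for Sostdc1 and 0.015 for Aqp1, and Enpp2 ran from -0.089 to 0.12 with a pool left out. In the NAc, correlations with Ttr without the 2 farthest pools were -0.045 for Enpp2, -0.22 for Sostdc1 and -0.060 for Otx2, and on the first BeadChip -0.70 for Sostdc1 and -0.86 for Otx2.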
